A study of Mus musculus with 6 samples.

Results

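The heat shock chaperones described here are the 10 genes Hspa1a, Hspa1b, Hspa8, Hsp90aa1, Hsp90ab1, Hsph1, Hspb1, Dnajb1, Hspd1 and Hspe1. They were found by symbol among the 23366 gene symbols of the expression table, and all 10 were present. Chaperones bind unfolded proteins and help them fold or keep them from aggregating. HSP70 proteins work in cycles driven by ATP with J-domain partners such as Dnajb1, which deliver substrates, and with exchange factors such as Hsph1, which release ADP. HSP90 proteins complete the folding of kinases and steroid receptors, small heat shock proteins hold unfolded proteins without using ATP, and the Hspd1-Hspe1 chaperonin folds proteins inside mitochondria. Under heat or protein damage, heat shock factor 1 (HSF1) binds heat shock elements in the promoters of these genes and raises their transcription within minutes. Secretory tissues such as salivary glands make large amounts of protein and carry a second set of chaperones in the endoplasmic reticulum (ER), which has its own stress response.

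RNA was sequenced from epithelial cells of the submandibular salivary gland of adult mice aged 12 weeks. There were 3 libraries labelled p63 knockout and 3 labelled p63 wild type, and no treatment is named for either group. Trp63 encodes p63, which controls transcription in the basal layer of many epithelia, and the study asked what it does for salivary progenitor cells. The labels do not give the Cre driver, the deleted exons, the strain, or whether glands were pooled, so the p-values reflect only how far these samples lie apart, which may be technical.

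Values are in TPM, a measure of transcript abundance that allows for gene length and sums to 1000000 in each library, so levels can be compared between genes but sequencing depth is unknown. Trp63 itself was low in all libraries, with 1.59, 0.816 and 1.76 TPM in the knockout and 3.48, 1.85 and 3.68 TPM in wild type. The groups did not overlap, narrowly (1.76 against 1.85 TPM), and 15.6% of all genes were lower without overlap. The log2 fold change was -0.74 (limma adjusted p = 0.27). Without knockout library 3 it was -0.85 (limma adjusted p = 0.040), in a fit in which 11.7% of all genes passed as lower. Trp63 passed in 2 of 16 alternative fits. All 7 epithelial markers listed (Epcam, Cdh1 and keratins among them) were measured, with a summed level of 748 to 1774 TPM in the knockout and 1016 to 1192 TPM in wild type. Markers of other tissue were uneven within both groups. Those of neighbouring glands summed to 75.2 to 7067 TPM in the knockout and 521 to 11356 TPM in wild type. Adipocyte markers summed to 27.1 to 206 TPM and 68.3 to 230 TPM. Knockout library 3 stood apart: it had 10634 genes at 1 TPM or more against 11129 to 11235 in the others. Its 50 most abundant genes held 80.3% of its TPM, against 69.2% and 71.0% in knockout libraries 1 and 2 and 73.3% to 75.9% in wild type. As the sum of TPM is fixed, knockout library 3 had less left for all other genes. Its median difference from the wild-type mean over all 11268 genes tested was -0.29 on the log2(TPM + 1) scale, against 0.27 and 0.24 for knockout libraries 1 and 2. Over all genes, however, knockout library 3 was the knockout library nearest to wild type. Its median absolute log2 difference from each wild-type library was 0.32 to 0.37, against 0.50 to 0.54 for knockout libraries 1 and 2. Results below are given without knockout library 3 as well where a call changed. That choice does not show which fit is nearer the truth, and which knockout library is unusual was not tested.

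Over the 10 chaperone genes together, RNA levels were of the same order in both groups. Their summed level was 1112, 906 and 1068 TPM in knockout libraries 1, 2 and 3 and 993, 891 and 1051 TPM in wild-type libraries 1, 2 and 3. Most of it came from Hspa8 and Hsp90ab1, the forms made in unstressed cells, which held 75.2% to 80.8% of the sum in the knockout and 70.6% to 72.8% in wild type. The 6 stress-inducible members (Hspa1a, Hspa1b, Hsph1, Dnajb1, Hspb1 and Hsp90aa1) summed to 88.8, 80.9 and 129 TPM in the knockout and 124, 123 and 139 TPM in wild type. Knockout libraries 1 and 2 lay below every wild-type library in this inducible sum, and knockout library 3 lay inside the wild-type range.

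**Figure D1:**
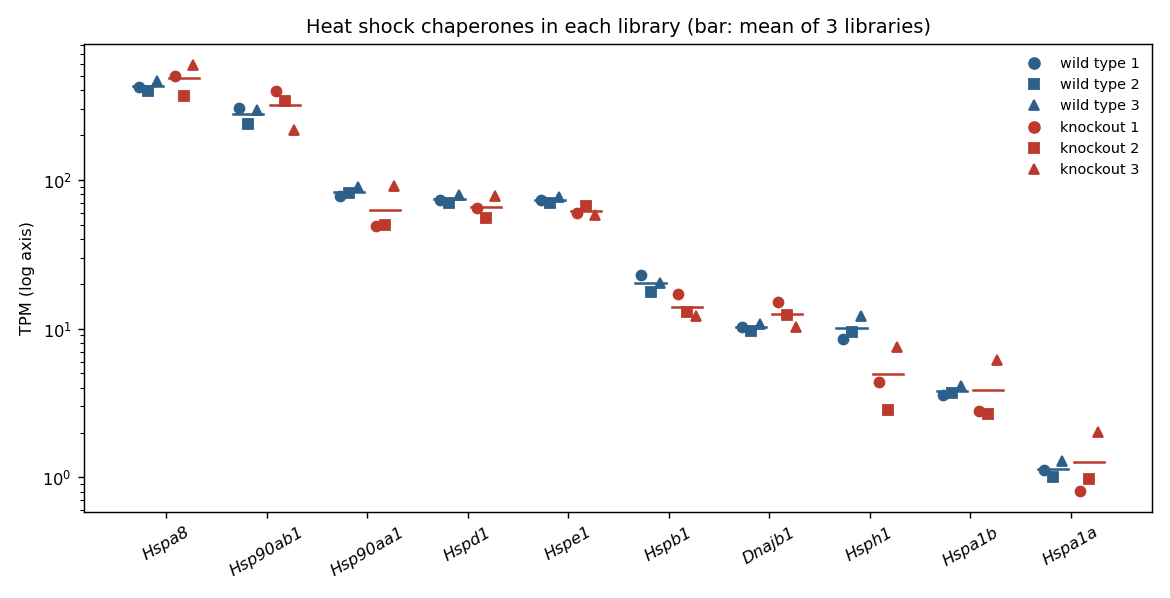
TPM (log axis) of each chaperone gene in each library, with symbols for libraries 1, 2 and 3 of each group and bars at the group means (n = 3 each). The genes span from Hspa8, at 392 to 463 TPM in wild type, to Hspa1a, at 1.00 to 1.28 TPM, and the wild-type symbols lie closer together than the knockout symbols.

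All 10 genes passed the filter of at least 1 TPM in at least 3 libraries. In limma's test of knockout against wild type, 0 of the 10 passed at a Benjamini-Hochberg adjusted p of 0.05, and 1, Hsph1, had an unadjusted p under 0.05. Of all 11268 genes tested, 44 passed (0.39%), 8 higher (0.071%) and 36 lower (0.319%). Of the 10, 4 had positive and 6 negative log2 fold changes, beside 6464 and 4804 of all genes tested. The median over the 10 was -0.11, beside 0.09 over all genes tested. Without knockout library 3 these medians were -0.25 and 0.26. For 3 members the groups were fully separate, Hsph1, Hspb1 and Hspe1, each lower in the knockout. Over all genes 15.6% were lower without overlap and 5.42% were higher without overlap.

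Within the wild-type group the order of the levels was Hspa8, Hsp90ab1, then Hsp90aa1, Hspd1 and Hspe1 with overlapping ranges, then Hspb1, then Dnajb1 and Hsph1 with overlapping ranges, then Hspa1b and last Hspa1a. By wild-type mean Hspa8 ranked 115 and Hsp90ab1 179 among the 11268 genes tested, while Hspa1b ranked 8065 and Hspa1a 10917. In the knockout the ranges of Hspa8 and Hsp90ab1 overlapped as well, as did those of Hspb1 and Dnajb1 and those of Hsph1 and Hspa1b. Hsph1 no longer overlapped Dnajb1 there, as its highest knockout value of 7.57 TPM lay below the lowest of Dnajb1, 10.3 TPM.

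Hspa1a and Hspa1b, the HSP70 pair that stress switches on from very low levels, were the least abundant members in both groups. Hspa1b measured 2.79, 2.65 and 6.14 TPM in knockout libraries 1, 2 and 3 and 3.59, 3.69 and 4.11 TPM in wild-type libraries 1, 2 and 3. Hspa1a measured 0.813, 0.969 and 2.02 TPM in the knockout and 1.12, 1.00 and 1.28 TPM in wild type. For both genes, knockout libraries 1 and 2 lay below every wild-type library and knockout library 3 lay above every one. The log2 fold change was -0.05 for Hspa1b (SE 0.30, 95% interval -0.75 to 0.64, limma adjusted p = 0.93) and 0.05 for Hspa1a (SE 0.23, 95% interval -0.48 to 0.59, limma adjusted p = 0.91). Without knockout library 3 they were -0.37 (limma adjusted p = 0.080) and -0.17 (limma adjusted p = 0.42), and the sign for Hspa1a turned. The intervals leave room for a change in either direction in both genes.

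Hspa1a and Hspa1b are neighbouring copies on mouse chromosome 17, and their promoters are shown because they are nearly identical. The RefSeq stretches below (build GRCm38.p6, minus strand, positions 250 to 1 before the start) lie at chr17:34972157-34972406 for Hspa1a and chr17:34959239-34959488 for Hspa1b. Capitals mark a match to GAANNTTC, the core of a heat shock element.
Hspa1a: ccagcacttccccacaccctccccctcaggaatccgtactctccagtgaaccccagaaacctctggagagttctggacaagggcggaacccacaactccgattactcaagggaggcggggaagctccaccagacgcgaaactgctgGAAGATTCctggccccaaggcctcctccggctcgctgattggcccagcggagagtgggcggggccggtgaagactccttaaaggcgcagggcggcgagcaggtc
Hspa1b: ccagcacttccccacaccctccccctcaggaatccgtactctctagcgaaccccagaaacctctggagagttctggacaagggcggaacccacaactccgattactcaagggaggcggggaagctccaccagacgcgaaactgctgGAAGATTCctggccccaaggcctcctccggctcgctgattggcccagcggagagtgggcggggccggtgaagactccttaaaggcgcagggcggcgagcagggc
The 2 stretches of 250 bases differ at 3 positions (98.8% identical), and in both the match begins at position -104, counted from -1 for the base before the start. The transcripts are also alike. Of the 2754 different stretches of 50 bases in the Hspa1b transcripts of GENCODE M21, 1716 also occur in Hspa1a, so the split of reads between the pair is uncertain. The Hspa1b to Hspa1a ratio of TPM was 3.43, 2.73 and 3.04 in the knockout and 3.21, 3.69 and 3.21 in wild type. Summed, the pair stood at 3.60, 3.62 and 8.15 TPM against 4.70, 4.69 and 5.39 TPM, with a log2 fold change of -0.03 (limma adjusted p = 0.96).

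Hsph1, the HSP110 exchange factor that recharges HSP70 and helps it dissolve aggregates, was lower in every knockout library than in any wild-type library. It measured 4.39, 2.84 and 7.57 TPM in knockout libraries 1, 2 and 3 and 8.53, 9.50 and 12.2 TPM in wild-type libraries 1, 2 and 3. The knockout mean was 4.93 ± 2.41 TPM and the wild-type mean 10.1 ± 1.89 TPM (SD, n = 3 each). The log2 fold change was -0.96 (SE 0.33, 95% interval -1.73 to -0.20), and it did not pass over all genes (limma adjusted p = 0.24). By an exact permutation test (two-sided) p was 0.1, the smallest value that 3 libraries against 3 allow. Without knockout library 3 Hsph1 fell by 1.27 (SE 0.21, limma adjusted p = 0.0038), but 45.5% of all genes passed in that fit, 33.8% higher and 11.7% lower. None of its 4402 stretches of 50 bases occurs in the transcripts of another gene, so sharing of reads with copies does not touch its value at that length.

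The upstream stretch of Hsph1 is shown because this gene had the largest difference among the members. It lies at chr5:149636339-149636456 (RefSeq, GRCm38.p6, minus strand, positions 120 to 3 before the start), with a match to TTCNNGAA in capitals.
Hsph1: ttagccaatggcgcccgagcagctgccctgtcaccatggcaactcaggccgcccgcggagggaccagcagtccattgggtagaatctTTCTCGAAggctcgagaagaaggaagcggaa
The match begins at position -33. A longer element of 13 letters, in which the triplets TTC, GAA and TTC are each set 2 bases apart, begins at position 37 after the start, inside the transcribed part, and is not shown.

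Hsp90aa1, the inducible cytosolic HSP90, split the knockout libraries. It measured 48.6, 49.3 and 91.2 TPM in knockout libraries 1, 2 and 3 and 77.7, 81.3 and 90.0 TPM in wild-type libraries 1, 2 and 3. Knockout libraries 1 and 2 stood far below the wild-type range, and knockout library 3 was the highest of all 6. The log2 fold change was -0.45 (SE 0.28, 95% interval -1.09 to 0.19, limma adjusted p = 0.43). Without knockout library 3 Hsp90aa1 fell by 0.75 (SE 0.13, limma adjusted p = 0.0045), in a fit in which 11.7% of all genes passed as lower. Hsph1 and Hsp90aa1 were the 2 members that passed there, and the same 2 passed with array weights, which gave knockout library 3 a weight of 0.0900 against 0.763 to 2.76 for the others (42.8% of all genes passed, 11.9% lower). Both of these fits rest mainly on the other 2 knockout libraries.

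Hspb1, a small heat shock protein that is abundant in muscle and in keratinized epithelium, was lower without overlap. It measured 17.1, 12.9 and 12.1 TPM in the knockout and 23.0, 17.6 and 20.4 TPM in wild type. The gap between the groups was small, as the highest knockout value and the lowest wild-type value were 17.1 and 17.6 TPM. The log2 fold change was -0.51 (SE 0.22, 95% interval -1.03 to 0.01, limma adjusted p = 0.33), and an exact permutation test gave p = 0.1. Markers of basal cells and of myoepithelial and smooth muscle cells moved the same way. The 5 basal markers (Krt14, Krt5, Trp63, Col17a1 and Ngfr, all measured) summed to 13.8 to 59.4 TPM in the knockout and 143 to 164 TPM in wild type. As Trp63 is the gene knocked out, the basal list is not independent of the genotype. The 7 myoepithelial and smooth muscle markers (Acta2, Cnn1 and Myh11 among them, all measured) summed to 184 to 300 TPM against 501 to 552 TPM. Other marker sums were lower without overlap too, among them fibroblast, endothelial (17.6 to 24.3 against 26.4 to 28.7 TPM) and macrophage sums (101 to 116 against 131 to 147 TPM). Epithelial and acinar sums overlapped, as did the skeletal muscle sum (2.99 to 14.5 against 2.50 to 12.1 TPM). The skeletal muscle sum was highest in knockout library 3. Among the knockout libraries the basal sum was highest in library 3, where Hspb1 was lowest. The part of these cells in the Hspb1 values was not tested, and in bulk RNA fewer cells of a type and less RNA per cell cannot be told apart.

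The Hspb1 promoter holds a pair of matches to GAANNTTC, at positions -117 and -97, shown in capitals in the stretch at chr5:135887769-135887918 (RefSeq, GRCm38.p6, plus strand, positions 150 to 1 before the start).
Hspb1: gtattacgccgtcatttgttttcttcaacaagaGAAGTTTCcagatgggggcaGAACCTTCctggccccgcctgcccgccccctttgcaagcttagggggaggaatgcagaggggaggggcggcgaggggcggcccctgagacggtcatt
Of the stretches of 50 bases of Hspb1, 50.1% also occur in transcripts of other genes, most of them in the pseudogene Hsp25-ps1.

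Dnajb1, the J-domain partner that HSF1 induces together with Hspa1a and Hspa1b, was the only inducible member with no knockout library below the wild-type range. It measured 15.2, 12.3 and 10.3 TPM in the knockout and 10.3, 9.68 and 10.8 TPM in wild type. Knockout libraries 1 and 2 were above the wild-type range and knockout library 3 was inside it. For Hsph1 and Hsp90aa1, by contrast, knockout library 3 was the highest of the 3. The log2 fold change was 0.26 (SE 0.22, 95% interval -0.26 to 0.77, limma adjusted p = 0.54), and 0.38 without knockout library 3 (limma adjusted p = 0.072). No heat shock element of the kinds searched was found in the 2 promoter windows of Dnajb1.

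Hspa8 and Hsp90ab1, the constitutive HSP70 and HSP90 of the cytosol, overlapped between the groups. Hspa8 measured 501, 368 and 588 TPM in knockout libraries 1, 2 and 3 and 418, 392 and 463 TPM in wild-type libraries 1, 2 and 3. Its knockout libraries lay on both sides of the wild-type range (log2 fold change 0.17, SE 0.22, 95% interval -0.34 to 0.68, limma adjusted p = 0.69). Hsp90ab1 measured 397, 336 and 215 TPM in the knockout and 304, 237 and 294 TPM in wild type. Knockout libraries 1 and 2 were the highest of the 6 and knockout library 3 the lowest (log2 fold change 0.14, SE 0.26, 95% interval -0.46 to 0.75, limma adjusted p = 0.78). Of the stretches of 50 bases of Hspa8, 68.8% also occur in other genes, as do 50.1% of those of Hsp90aa1, while for Hsp90ab1 this share was 4.13%.

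Hspd1 and Hspe1 encode the barrel and the lid of the mitochondrial chaperonin. Hspd1 measured 64.8, 55.1 and 77.6 TPM in the knockout and 73.2, 69.3 and 79.2 TPM in wild type, with overlap (log2 fold change -0.18, SE 0.20, 95% interval -0.64 to 0.29, limma adjusted p = 0.64). Hspe1 measured 60.0, 66.6 and 57.8 TPM in the knockout and 73.0, 69.5 and 76.1 TPM in wild type. All 3 knockout values of Hspe1 were below the wild-type range (log2 fold change -0.24, SE 0.18, 95% interval -0.65 to 0.16, limma adjusted p = 0.48, exact permutation p = 0.1). In wild type the Hspd1 to Hspe1 ratio was 1.00, 0.996 and 1.04, and in the knockout it was 1.08, 0.828 and 1.34. The ratio was thus spread more widely in the knockout (SD 0.257) than in wild type (SD 0.0242), with means of 1.08 and 1.01. Of the stretches of 50 bases, 42.1% of those of Hspd1 and 44.8% of those of Hspe1 also occur in other genes. How reads were shared with those genes is not known.

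The chaperonin genes lie head to head on chromosome 1 and share the DNA between them, shown here because 1 heat shock element serves both windows. The stretch at chr1:55088025-55088131 (RefSeq, GRCm38.p6) holds no exon of the basic GENCODE M21 set and is written on the plus strand, from 123 to 17 bases before the Hspe1 start. Capitals mark a run of overlapping matches to TTCNNGAA and GAANNTTC.
Hspe1: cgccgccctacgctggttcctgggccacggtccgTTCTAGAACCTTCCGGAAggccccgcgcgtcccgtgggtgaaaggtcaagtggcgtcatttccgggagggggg
The run begins at position -89 from the Hspe1 start and holds the 13-letter element on both strands, in copies that overlap each other. It also lies upstream of the nearer Hspd1 start, and is absent from the window of a second, more distant Hspd1 start. Promoter windows of 300 bases (250 before the start to 50 after it) were found for 7 of the 10 members, all but Hspa8, Hsp90aa1 and Hsp90ab1. Of all 32851 RefSeq windows, 15.1% held GAANNTTC or TTCNNGAA on either strand and 0.603% held the 13-letter element. Of the 7 members with windows, 6 held an 8-letter match and 3, Hsph1, Hspd1 and Hspe1, the 13-letter element. These counts are by gene, some genes having more than 1 window, while the shares are by window. The members are also not independent, as Hspd1 and Hspe1 share 1 run and Hspa1a and Hspa1b are near copies. A match is a description of the letters and does not show binding.

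**Figure D2:**
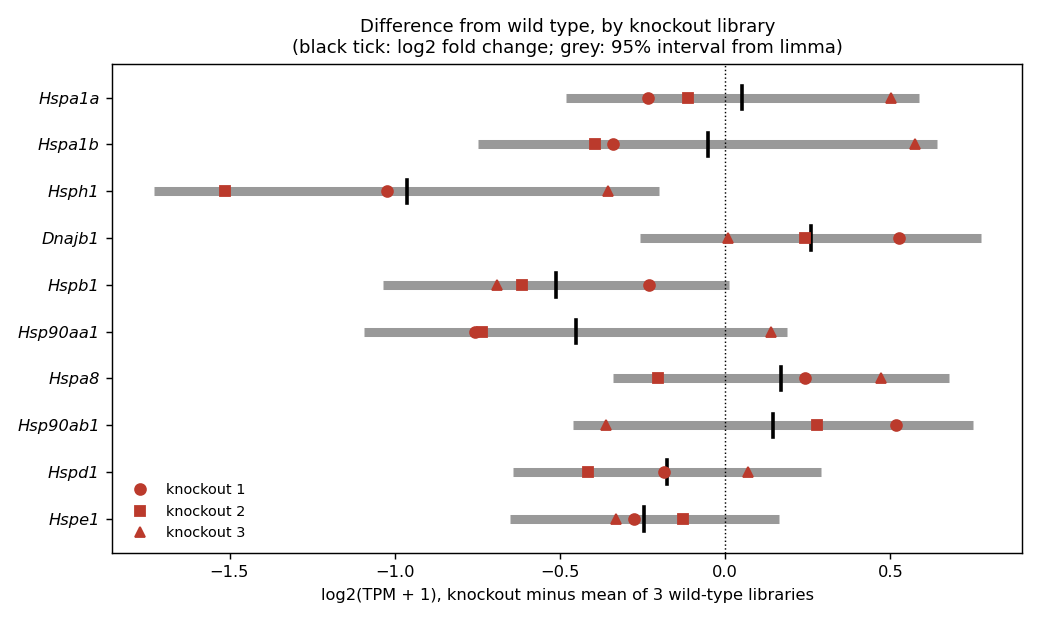
Difference of each knockout library from the wild-type mean on the log2(TPM + 1) scale for each member, with the log2 fold change (black tick) and its 95% interval from limma (grey bar). Knockout library 3 (triangle) lies right of the other 2 for Hspa1a, Hspa1b, Hsph1, Hsp90aa1, Hspa8 and Hspd1 and left of them for Dnajb1, Hspb1, Hsp90ab1 and Hspe1, and only the interval of Hsph1 (-1.73 to -0.20) leaves out 0.

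The knockout libraries differed among themselves more than the wild-type libraries did. The median SD over the 10 members on the log2(TPM + 1) scale was 0.37 in the knockout and 0.10 in wild type, beside 0.42 and 0.15 over all genes. The knockout SD was the larger for 10 of 10 members, and for 85.9% of all genes tested. Knockout library 3 was the one farthest from its group's median for 6 of the 10, and for 63.3% of all genes. On both counts the members were near the share of all genes.

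Ratios between 2 genes of 1 library do not depend on how the library was scaled. For 7 such ratios, exact two-sided permutation tests over 3 against 3 libraries gave no p below 0.1. That is the smallest value that 3 libraries against 3 allow, so a lower p was not possible. The ratios were also chosen after the values were seen, so their p-values, adjusted or not, are a description and not a test. The Hsph1 to Hspa8 ratio was 0.00876, 0.00772 and 0.0129 in the knockout and 0.0204, 0.0242 and 0.0263 in wild type. Every knockout value was below every wild-type value (exact permutation p = 0.1, adjusted over the 7 ratios 0.35). The Hsp90aa1 to Hsp90ab1 ratio was 0.122, 0.147 and 0.423 in the knockout and 0.255, 0.343 and 0.306 in wild type. Knockout libraries 1 and 2 had the lowest share of the inducible form and knockout library 3 the highest (exact permutation p = 0.4, adjusted 0.56).

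**Figure D3:**
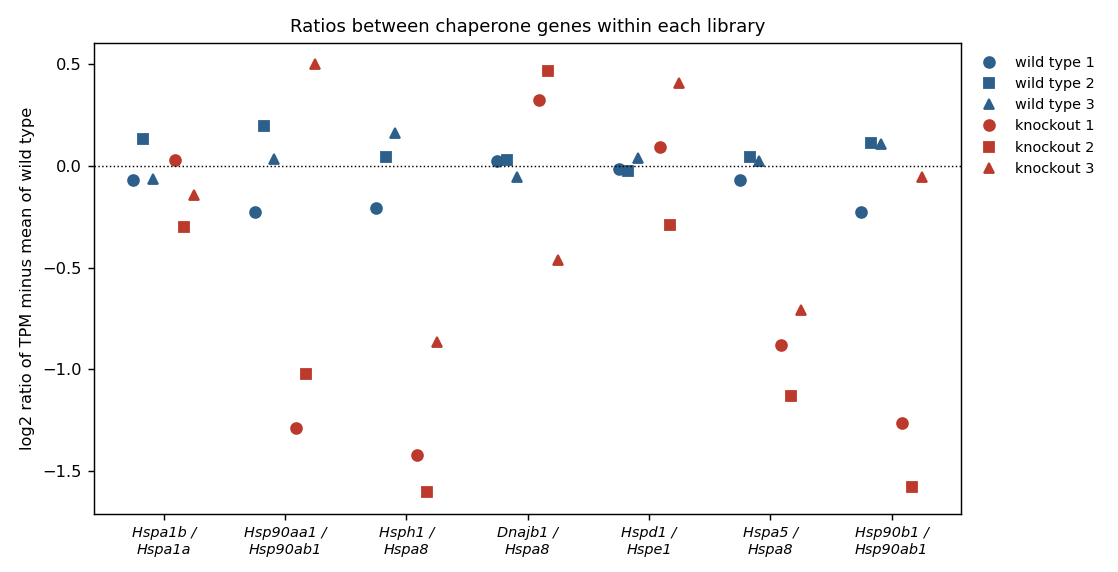
Log2 ratio of TPM between pairs of chaperone genes in each library, minus the wild-type mean, for 7 pairs (n = 3 libraries per group). The Hsph1 to Hspa8 and Hspa5 to Hspa8 ratios are below wild type in all 3 knockout libraries, while Hsp90aa1 to Hsp90ab1 is below it in knockout libraries 1 and 2 only.

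Other chaperone, proteasome and stress response genes were counted from lists, 155 tested genes in all. In limma's test 0 of them passed as higher and 1 as lower, Serpinh1, beside 0.39% of all genes. An unadjusted p under 0.05 was found for 27 of the 155 and for 1740 of all 11268 genes. In the fit without knockout library 3, 47 of the 155 were higher and 21 lower, beside 33.8% and 11.7% of all genes. Serpinh1 belongs to a list of 19 tested stress-induced genes, some of them also counted in other lists. Of the 19, 11 had positive and 8 negative log2 fold changes (median 0.08), beside 6464 and 4804 of all genes. Serpinh1 encodes HSP47, a heat-inducible chaperone of the ER that binds only collagens. It measured 6.15, 7.26 and 6.09 TPM in knockout libraries 1, 2 and 3 and 21.3, 19.1 and 20.6 TPM in wild-type libraries 1, 2 and 3. The mean was 20.3 ± 1.16 TPM in wild type and 6.50 ± 0.656 TPM in the knockout (SD, n = 3 each), so Serpinh1 fell by 1.51 on the log2 scale (SE 0.20, limma adjusted p = 0.036), and knockout library 3 did not stand apart. The call was lost in 7 of 17 alternatives (limma adjusted p 0.00057 to 0.26), among them 5 of the 6 fits without 1 library and the fit with a block for neighbouring library numbers. The 6 fibroblast markers, collagen genes among them, were all measured and summed to 129 to 268 TPM in the knockout and 277 to 355 TPM in wild type. Their part in the Serpinh1 result was not tested.

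The heat shock factors themselves overlapped between the groups. Hsf1, the factor that drives the members under stress, measured 12.3, 9.68 and 5.51 TPM in the knockout and 8.72, 7.45 and 8.15 TPM in wild type (log2 fold change 0.10, limma adjusted p = 0.87). Hsf2 had a log2 fold change of 0.01 (limma adjusted p = 0.99) and Hsf4 of 0.29 (limma adjusted p = 0.71). Hsbp1, a small protein that binds HSF1, stood at -0.19 (limma adjusted p = 0.60). Of these 4 tested genes, 0 passed in limma's test (unadjusted p under 0.05 in 0). Hsf4 rose by 0.78 without knockout library 3 (limma adjusted p = 0.0062), and Hsf1 stood at 0.39 (limma adjusted p = 0.081). In that fit 33.8% of all genes were higher and 11.7% lower.

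The J-domain co-chaperones other than Dnajb1 were mostly on the positive side, with 12 of 16 tested genes positive and a median log2 fold change of 0.31. Over all genes tested, 6464 of 11268 were positive, with a median of 0.09. In limma's test 0 of the 16 passed (unadjusted p under 0.05 in 2). Dnaja1, the partner of Hspa8 in the cytosol and itself heat inducible, went the other way. It measured 25.8, 19.5 and 31.1 TPM in the knockout and 35.6, 39.0 and 42.3 TPM in wild type. Dnaja1 was thus lower without overlap, as were 15.6% of all genes (log2 fold change -0.62, SE 0.23, limma adjusted p = 0.27). Dnajc7, which joins HSP70 to HSP90, measured 70.4, 78.0 and 32.9 TPM against 30.4, 32.3 and 34.2 TPM (log2 fold change 0.79, limma adjusted p = 0.31). Knockout libraries 1 and 2 carried the whole of that difference, and without knockout library 3 Dnajc7 rose by 1.18 (limma adjusted p = 0.000998) and Dnaja1 fell by 0.77 (limma adjusted p = 0.0091). In that fit 8 of the 16 were higher and 1 lower, beside 33.8% and 11.7% of all genes.

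Among 16 co-chaperones of HSP90, 4 had positive and 12 negative log2 fold changes (median -0.10), beside 6464 and 4804 of all genes. Of the 16, 0 passed in limma's test (unadjusted p under 0.05 in 2) and 4 were lower without overlap (15.6% of all genes). Fkbp4, an immunophilin of steroid receptor complexes, measured 62.1, 86.8 and 117 TPM in the knockout and 118, 147 and 136 TPM in wild type (log2 fold change -0.63, limma adjusted p = 0.31). Its relative Fkbp5, which glucocorticoids and androgens induce, measured 160, 170 and 46.4 TPM against 51.6, 44.1 and 68.5 TPM, with overlap (log2 fold change 0.99, limma adjusted p = 0.36). Without knockout library 3 Fkbp4 (-0.85), Chordc1 (-0.91) and Stip1 (-0.50), the last 2 also HSF1-induced, fell and Fkbp5 rose (1.60), with limma adjusted p between 0.0013 and 0.022. In that fit 2 of the 16 were higher and 4 lower, beside 33.8% and 11.7% of all genes. Fkbp5, Chordc1 and Stip1 were named after their values were seen.

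Of the other small heat shock proteins, 5 were tested and all had positive log2 fold changes, beside 6464 of all 11268 genes. Hspb1 had the opposite sign. Hspb8, which works with Bag3 to clear misfolded proteins, measured 119, 62.9 and 29.8 TPM in the knockout and 25.3, 19.3 and 29.8 TPM in wild type. Knockout library 3 lay just above the highest wild-type library, equal to it at 3 digits, and the other 2 were well above (log2 fold change 1.28, SE 0.46, limma adjusted p = 0.26, and 1.79 with adjusted p = 0.0035 without knockout library 3). Cryab stood at 0.42 (limma adjusted p = 0.46), and in limma's test 0 of the 5 passed (unadjusted p under 0.05 in 1). Of 5 other HSP70 and HSP110 genes 0 passed in limma's test (unadjusted p under 0.05 in 1). Hspa9, the mitochondrial HSP70, measured 166, 117 and 99.6 TPM in the knockout and 93.4, 80.2 and 98.7 TPM in wild type. It was higher without overlap, as were 5.42% of all genes (log2 fold change 0.46, limma adjusted p = 0.37). Hspa2, a form best known from testis, was lower without overlap at -0.65 (limma adjusted p = 0.18), as were 15.6% of all genes. Both passed without knockout library 3, Hspa9 at 0.62 (limma adjusted p = 0.033) and Hspa2 at -0.71 (limma adjusted p = 0.021). In that fit 33.8% of all genes were higher and 11.7% lower.

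Among the remaining lists, 0 genes passed in limma's test. The exchange factors and other HSP70 partners had a median log2 fold change of 0.13 over 9 genes (0 at an unadjusted p under 0.05), with the ubiquitin ligase Stub1 at -0.42 (limma adjusted p = 0.38) and Bag2 at 0.56 (limma adjusted p = 0.41). The cytosolic chaperonin TRiC and prefoldin had a median of 0.03 over 13 genes (0 at an unadjusted p under 0.05), with Pfdn1 at -0.27 (limma adjusted p = 0.48) and Pfdn2 at 0.39 (limma adjusted p = 0.53). Mitochondrial chaperones and proteases other than the members had a median of 0.01 over 15 genes (1 at an unadjusted p under 0.05). Trap1, the mitochondrial HSP90, measured 29.6, 27.2 and 23.3 TPM against 43.6, 37.0 and 39.0 TPM. It was lower without overlap, as were 15.6% of all genes (log2 fold change -0.56, limma adjusted p = 0.25). The proteasome had a median of -0.03 over 32 genes (1 at an unadjusted p under 0.05), with Psmb5 at -0.46 (limma adjusted p = 0.30) and Psma4 at -0.33 (limma adjusted p = 0.39). Some genes of each of these lists passed without knockout library 3, in a fit in which 33.8% of all genes were higher and 11.7% lower. There 3 of the 9 exchange factors and partners were higher, as were 2 of the 13 chaperonin and prefoldin genes. Of the 15 mitochondrial genes 4 were higher and 1 lower, and of the 32 proteasome genes 6 were higher and 2 lower. Among the genes named, Pfdn2 (0.76, limma adjusted p = 0.0045) and Bag2 (0.85, limma adjusted p = 0.014) rose there. Trap1 (-0.47, limma adjusted p = 0.028), Psmb5 (-0.47, limma adjusted p = 0.032) and Psma4 (-0.39, limma adjusted p = 0.044) fell there.

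**Figure D4:**
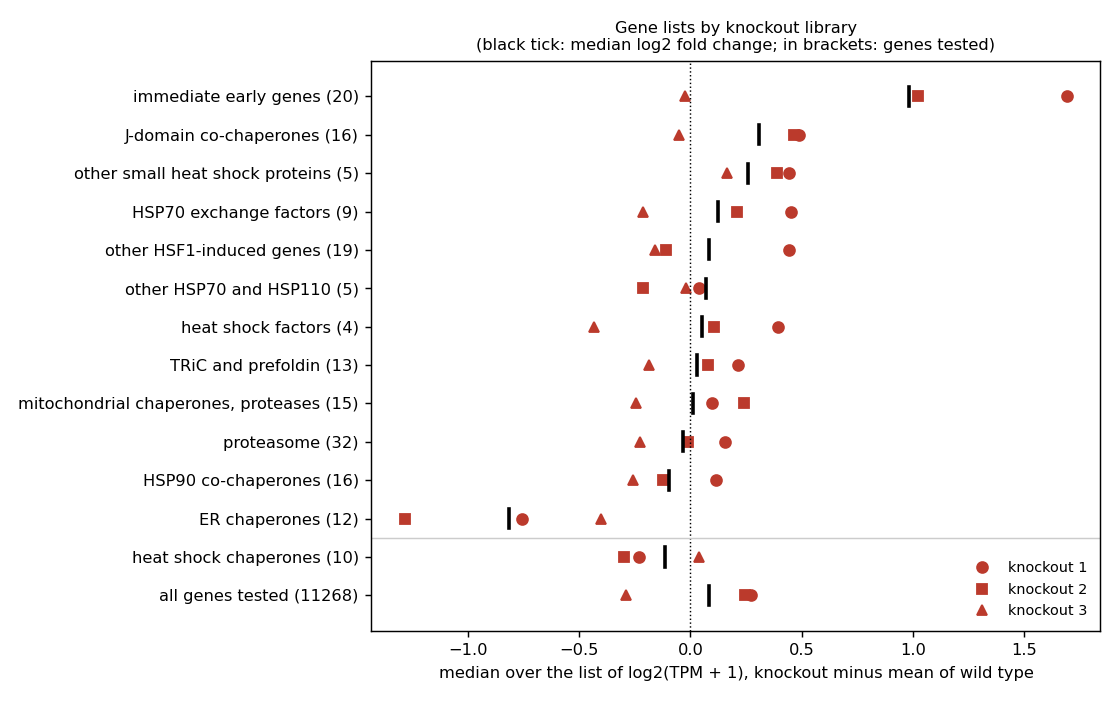
Median over each gene list of the difference between a knockout library and the wild-type mean, on the log2(TPM + 1) scale (symbols: knockout libraries 1, 2 and 3), with the median log2 fold change as a black tick and the number of genes tested in brackets. The immediate early genes (0.98) and the ER chaperones (-0.82) are the lists with the medians farthest from 0. The heat shock chaperones have a median of -0.11, beside 0.09 for all genes tested. By knockout library the medians were -0.23, -0.30 and 0.04 for the heat shock chaperones and 0.27, 0.24 and -0.29 for all genes tested. The list marked as other HSF1-induced genes holds stress-induced genes in general.

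The ER relatives of the members had values on the negative side throughout. All 12 ER chaperone genes had negative log2 fold changes (median -0.82), beside 4804 of all 11268 genes. Of the 12, 9 were lower without overlap (15.6% of all genes), and 0 passed in limma's test (unadjusted p under 0.05 in 10). Hspa5, the ER HSP70 (BiP), measured 296, 183 and 391 TPM in the knockout and 434, 440 and 512 TPM in wild type (log2 fold change -0.73, limma adjusted p = 0.29). Hsp90b1, the ER HSP90 (GRP94), measured 192, 131 and 242 TPM against 303, 299 and 370 TPM (log2 fold change -0.82, limma adjusted p = 0.21). The 11 of 12 that passed without knockout library 3 all fell, beside 11.7% of all genes, Hspa5 by 0.98 and Hsp90b1 by 1.02. The genes closest to passing in the full fit were Pdia6, a disulfide isomerase (-0.81, limma adjusted p = 0.092), and Hyou1, the ER counterpart of Hsph1 (-1.19, limma adjusted p = 0.098). Set against its cytosolic relative in the same library, the Hspa5 to Hspa8 ratio was 0.591, 0.496 and 0.665 in the knockout and 1.04, 1.12 and 1.11 in wild type, without overlap (exact permutation p = 0.1, adjusted over the 7 ratios 0.35). The Hsp90b1 to Hsp90ab1 ratio was 0.484, 0.390 and 1.12 against 0.996, 1.26 and 1.26, with overlap (exact permutation p = 0.2, adjusted 0.47). Markers of granular convoluted tubules, the ducts that secrete much of this gland's protein, moved the same way: 8 genes, of which 7 passed the filter and Ren1 was listed at 0 in every library, summed to 7619 to 25669 TPM in the knockout and 77440 to 93181 TPM in wild type. The 7 acinar markers summed to 86243 to 144953 TPM against 69522 to 86415 TPM. The part of these cells in the ER chaperone values was not tested.

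Immediate early genes, which tissue handling can induce along with heat shock genes, were mostly on the positive side. Of 20 tested genes 19 had positive log2 fold changes (median 0.98), beside 6464 of all 11268 genes. Of the 20, 6 were higher without overlap (5.42% of all genes), and 0 passed in limma's test (unadjusted p under 0.05 in 8). Their median difference from wild type was 1.69, 1.02 and -0.02 in knockout libraries 1, 2 and 3. Fos measured 4.34, 1.79 and 3.15 TPM in the knockout and 0.332, 0.359 and 0.544 TPM in wild type (log2 fold change 1.49, limma adjusted p = 0.064). Socs3, a feedback inhibitor of cytokine signalling, stood at 1.24 (limma adjusted p = 0.19). With knockout library 3 left out, 15 of the 20 were higher and 0 lower (median 1.36), beside 33.8% of all genes higher, and both Fos (1.46, limma adjusted p = 0.0064) and Socs3 (1.68, limma adjusted p = 0.0012) rose. The 6 inducible members had medians of -0.29, -0.50 and 0.07 in the same libraries. The 6 immediate early genes that were higher without overlap, Fos among them, exceeded every wild-type library in knockout library 3 as well. The 2 knockout libraries with a high immediate early median were those in which Hspa1a, Hspa1b, Hsph1 and Hsp90aa1 were lowest. The other 2 inducible members did not share this, as Dnajb1 was highest in those 2 libraries and Hspb1 was lowest in knockout library 3. The part of the immediate early response in the members' values was not tested.

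The genes whose levels most resembled the mean of the 6 inducible members on the log2(TPM + 1) scale were picked by Pearson's r over the 6 libraries, as a description without a test. They were Dnaja3, a mitochondrial J-domain protein (r = 0.993), Rbp7 (0.991), a retinol-binding protein gene, Ddah1 (0.986), Ccrn4l (0.986) and Hspa13 (0.985), an HSP70 relative of the microsomes. Dnaja3 measured 18.4, 17.5 and 22.0 TPM in the knockout and 21.7, 21.3 and 22.6 TPM in wild type. Hspa13 measured 11.7, 6.67 and 21.0 TPM against 21.7, 21.1 and 29.4 TPM. As in the members' mean, knockout libraries 1 and 2 were the lowest of the 6 in both genes, while knockout library 3 lay inside the wild-type range for Dnaja3 and just below it for Hspa13. The 6 points share the scaling of their libraries, and 11268 genes compared over 6 points give high values of r readily.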

How the data were processed

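The deposited values are TPM. Per the labels, the authors derived them from read counts, allowing for the size of each library and the length of each gene. The submitters' processing notes name TopHat2 2.1.1, Bowtie2 2.2.6, featureCounts 1.5.1, DESeq2 1.20.0 and mm9. The gene annotation, strand setting and treatment of reads matching several genes are not given in the sources used here. TPM keeps no depth, so no counting error was computed.

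Genotype labels gave the groups. Replicates were numbered in accession order. Values were taken as log2(TPM + 1). A gene entered the test if 3 or more libraries reached 1 TPM, which left 11268 genes. The test was limma 3.58.1 in R 4.3.3 (mean-variance trend, two-sided, Benjamini-Hochberg over all of them, threshold 0.05). Fold changes on this scale understate those of low genes. SD is of TPM and SE of the log2 fold change. The procedure was tested on simulated data that gave both groups the same spread, so that test does not cover the wider knockout spread. Members and lists were chosen with earlier results of these data known. All members were named. From each pathway list, up to 3 passing genes with the largest change were named or, where none passed, the 2 with the smallest p. The 5 genes most like the inducible members were named too. A gene that this rule names is counted in its list but not reported here. Other genes named are examples chosen after their values were seen. Alternatives covered the pseudocount, filter, scaling, trend, array weights, a block, the sum of Hspa1a and Hspa1b, and each library left out. Sequences are from RefSeq (GRCm38.p6) and shared stretches from GENCODE M21. Both differ from the authors' build, so no coordinate was joined to a value. Figures used matplotlib 3.10.9 in Python 3.11.15.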

Additional observations from a re-analysis of the deposited data

How the results depend on the processing

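Of the 10 members, 0 passed in limma's test under 15 of 17 alternatives, and 2 (Hsph1 and Hsp90aa1, both lower) passed with array weights and without knockout library 3. Leaving out each library gave 0 to 2 members. The members' median log2 fold change stayed between -0.26 and 0.01, its highest value being the fit without knockout library 2. The sign turned in 4 members. Hspa1a stood at -0.14 and Hspa8 at -0.038 with array weights. With 1 library left out, Hspa1a ranged from -0.17 (without knockout library 3) to 0.19, Hspa1b from -0.37 to 0.12 (0.09 and 0.12 without knockout libraries 1 and 2) and Hsp90ab1 from -0.042 (without knockout library 1) to 0.40.

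Over all genes, the 44 that passed became 25 with a pseudocount of 0.1 TPM, 11 with no filter, 29 with a filter of 5 TPM, 72 under quantile normalization and 4822 with array weights (3477 higher, 1345 lower). Leaving out 1 library gave 0 to 5127 (5127 without knockout library 3, 3809 of them higher, 11 and 16 without knockout libraries 1 and 2, and 1, 0 and 0 without wild-type libraries 1, 2 and 3, where 879, 1024 and 1020 had an unadjusted p under 0.05). Of the other chaperone and stress genes, the 1 that passed became 0 with no filter, 63 with array weights and 0 to 68 with 1 library left out (68 without knockout library 3, 0 without each of the other 5). The causes were not tested.

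The libraries carry no shared replicate number. Those with neighbouring index numbers were paired in 1 alternative, a replicate block, which gave 31 genes over all, 0 members and 0 of the other chaperone and stress genes. The deviations of the pairs from their group means correlated at 0.17, 0.23 and 0.08, and each library correlated best with its neighbour, a hint from the data and not the design. A limit throughout is that depth is unknown, and that Hspa1a, near 1 TPM, lies at the filter.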
